A study of Mus musculus with 4 samples.

Results

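The genes described here are the pocket proteins and the corepressors that they bind, 9 genes in all: Rb1, Rbl1 (p107) and Rbl2 (p130), the histone-binding proteins Rbbp4 and Rbbp7, the histone deacetylases Hdac1 and Hdac2, the histone methyltransferase Suv39h1 and the chromatin remodeller Smarca4 (Brg1). They were chosen by name, and every probe that carries one of these symbols on a mouse whole-genome Illumina BeadChip was used, with its intensity, bead standard error and detection p-value on all 4 arrays. Of 30872 symbols and 45281 probes on the array, 8 of the 9 genes had a probe under their symbol, 21 probes together. Hdac1 is not analysed here, since no probe carries that symbol. Of the 21 probes, 14 were detected (detection p-value below 0.01) on at least 1 array and 11 on all 4, and 7 genes could be analysed. Rbl2 was not detected on any array.

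All 4 arrays hold RNA of mouse embryonic fibroblasts (MEFs) of strain FVB;129, cells described in the study as carrying floxed Rb on both alleles, arrested by contact, released for 4 hr and then treated with the DNA-damaging agent doxorubicin at 100 ng/ml for 3 hr. The labels name neither the release nor the doxorubicin. Parental MEFs received a solution without TAT-Cre, a cell-permeable recombinase, and media alone. Rb-deleted MEFs received TAT-Cre and media alone. The other two groups received TAT-Cre together with a retrovirus for tagged murine Rb, which was wild type in WT Rb-HA MEFs and had its Cdk acceptor serines and threonines changed to alanine in ΔCdk Rb-HA MEFs. TAT-Cre and virus were each given as 2 treatments of 1 h, 3 h apart. Only the parental MEFs lacked TAT-Cre, so the loss of Rb and the exposure to TAT-Cre cannot be told apart. No array had a retrovirus without Rb, so Rb-HA and infection cannot be told apart either. Rb-HA was transcribed from a viral promoter, and whether an array holds 1 culture or a pool is not stated. There is 1 array per condition, so the differences below have no replicate check, and none was tested.

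Pocket proteins bind E2F transcription factors and, through the same pocket, bring chromatin-modifying enzymes to E2F-bound promoters, which silences genes of S phase. Hyper-phosphorylation of Rb by Cdks late in G1 releases E2F. RbAp48 (Rbbp4) and RbAp46 (Rbbp7) hold histones for several deacetylase, remodelling and Polycomb complexes, class I deacetylases remove acetyl groups from histone tails, Suv39h1 methylates histone H3 at lysine 9, and Brg1 is an ATPase of the SWI/SNF complex. In fibroblasts p107 is the pocket protein of cycling cells and p130 that of quiescent cells, and the p107 gene is itself an E2F target.

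Bead intensity was the measure throughout. Mean intensity per array was 336 to 346, a probe was read from a median of 44 beads, and 15950 to 16740 probes were detected per array. Markers of embryonic fibroblasts were detected on every array, 10 of 10, while no endothelial marker of 4 was analysed. The median bead standard error of a log2 ratio over all genes was 0.09. It describes the spread between beads on an array and not that between cultures. Intensities of different probes cannot be set against each other, so each gene is compared with itself.

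Promoters were read for the E2F word TTTSSCGC (S is C or G), spelled out as TTTCCCGC, TTTCGCGC, TTTGCCGC and TTTGGCGC on both strands, in RefSeq windows of assembly GRCm38.p6 that run from 250 bases before to 50 bases after a start. Windows were found for 7 of the 9 genes, 8 windows in all since Suv39h1 has more than 1 start. Rb1 and Hdac1 were not among them. Of these 8 windows 2 held a word, that of Rbl1 and 1 of those of Suv39h1. Among all windows 744 of 32851 (2.26%) held one, and among windows of genes analysed here 319 of 8725 (3.66%). Both sequences that hold a word are shown, with the word in capitals. The first is the stretch before the Rbl1 start, chr2:157204535-157204784, minus strand, with the word 18 bases before the start. The second is the 30 bases around the word of Suv39h1, chrX:8074407-8074436, minus strand, where it lies on the opposite strand, 64 bases before the start.

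Rbl1: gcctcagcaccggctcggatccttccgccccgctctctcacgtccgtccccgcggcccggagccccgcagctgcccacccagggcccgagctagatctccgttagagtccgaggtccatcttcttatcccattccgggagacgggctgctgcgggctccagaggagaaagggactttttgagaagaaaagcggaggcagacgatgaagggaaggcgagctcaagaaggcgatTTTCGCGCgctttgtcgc

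Suv39h1: ggaaggccggcGCGGCAAAcgtgggggccg

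Rbbp4, Rbbp7, Rbl2, Hdac2 and Smarca4 had no such word in their windows. A match is a description of letters and not a binding site.

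**Figure D1:**
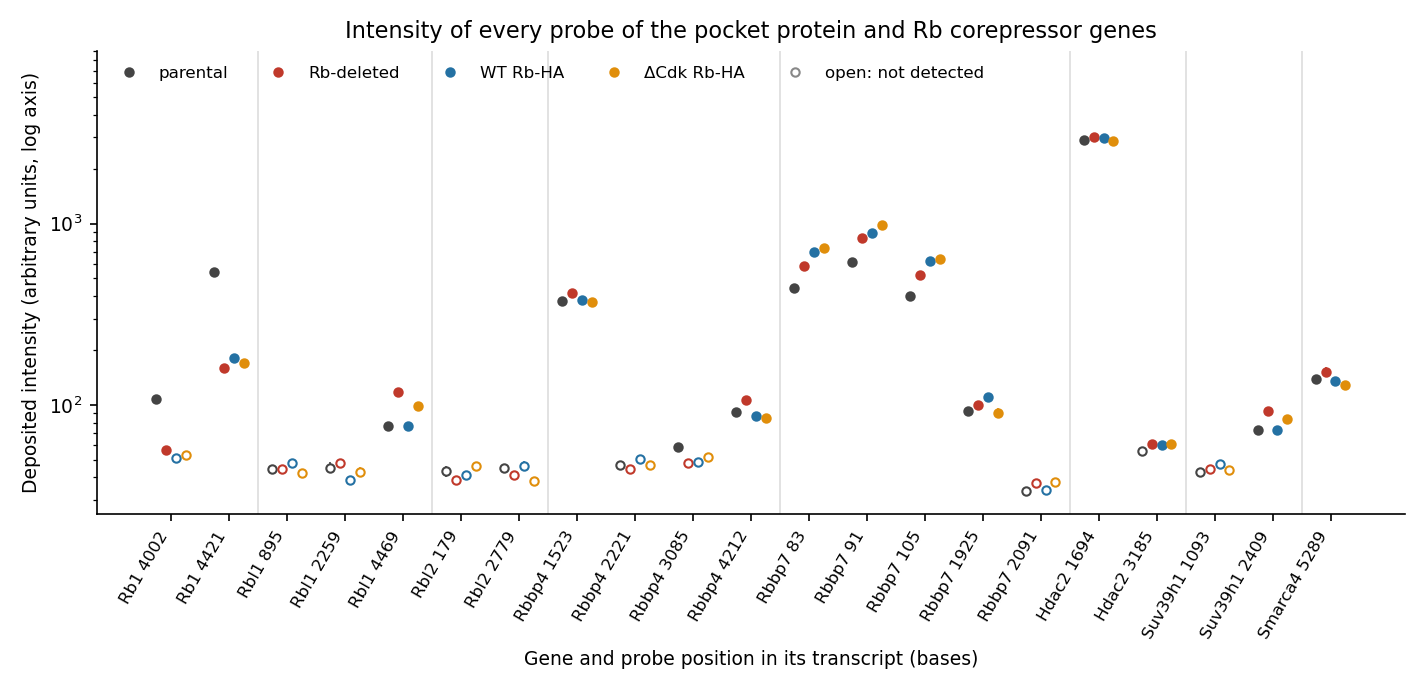
Deposited intensity (arbitrary units, log axis) of all 21 probes on the 4 arrays, by gene and first transcript position, with bead standard errors as bars (mostly within the point) and open points where the detection p-value was 0.01 or above. Rb1 4421 stands at 542.7 in parental MEFs and at 160.5 to 180.9 on the other arrays, and all Rbl2 points are open.

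Ratios were taken between arrays after background correction and quantile normalization, on the log2 scale, and a gene counted as called when it passed 1.6-fold (0.68). In Rb-deleted MEFs compared to parental, 1 of the 7 genes was called higher (Rbl1) and 1 lower (Rb1). Of all 12616 genes analysed, 2.14% were called higher and 2.98% lower. In WT Rb-HA MEFs none was called higher, against 0.888% of all genes, and 1 was called lower (Rb1), against 2.46%. In ΔCdk Rb-HA MEFs 1 was called higher (Rbbp7), against 2.58%, and 1 lower (Rb1), against 3.3%. All 3 ratios share the parental array.

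The spread over the members was wide. In Rb-deleted MEFs the median log2 ratio of the 7 genes was 0.20 (0.017 over all genes), 6 of them were above 0, and those other than Rb1 ran from 0.12 to 0.85. In WT Rb-HA MEFs the median was -0.01 (0.009 over all genes), and the genes other than Rb1 ran from -0.01 to 0.59. In ΔCdk Rb-HA MEFs it was 0.07 (-0.006 over all genes), and they ran from -0.07 to 0.78. For scale, percentiles 5 and 95 of all genes were -0.55 and 0.53 in Rb-deleted, -0.50 and 0.45 in WT Rb-HA, and -0.56 and 0.54 in ΔCdk Rb-HA MEFs. Short of 1.6-fold but above percentile 95 were Suv39h1 in Rb-deleted (0.54) and Rbbp7 in WT Rb-HA MEFs (0.59).

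**Figure D2:**
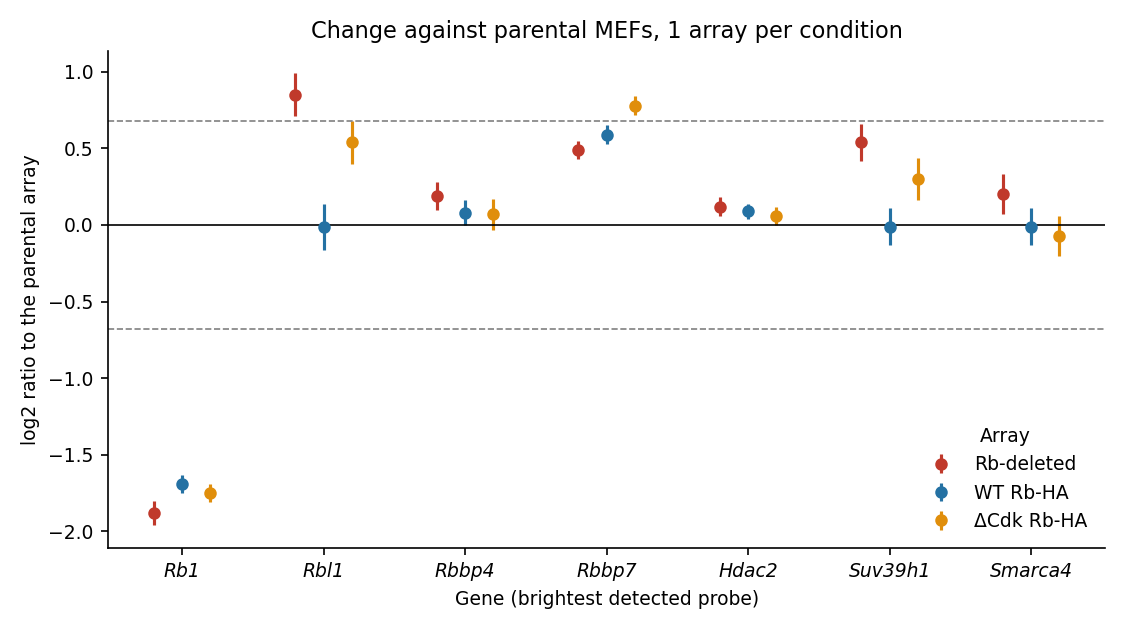
Log2 ratio to the parental array of the 7 analysed genes, each by its brightest detected probe, for the 3 arrays that received TAT-Cre, with bead standard errors as bars and 1.6-fold as dashed lines. Rb1 lies at -1.88 to -1.69, Rbl1 and Suv39h1 are highest in Rb-deleted and at -0.01 in WT Rb-HA, and Rbbp7 runs from 0.49 to 0.78.

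Rb1, on chromosome 14, encodes the pocket protein that TAT-Cre was meant to remove. Its probe at transcript position 4421 had intensities of 542.7 in parental, 160.5 in Rb-deleted, 180.9 in WT Rb-HA and 170.1 in ΔCdk Rb-HA MEFs, and was detected on all 4 arrays. The parental array stood apart and the 3 that received TAT-Cre lay together. On the log2 scale Rb1 fell by 1.88 in Rb-deleted (bead standard error 0.08, as in each bracket after a ratio), by 1.69 in WT Rb-HA (0.06) and by 1.75 in ΔCdk Rb-HA MEFs (0.06), which put it 25th, 46th and 69th from the bottom of the 12616 genes. Among the TAT-Cre arrays the differences were small. WT Rb-HA lay 0.19 (0.08) and ΔCdk Rb-HA 0.13 (0.08) above Rb-deleted, and ΔCdk Rb-HA was at -0.06 (0.07) to WT Rb-HA.

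The second Rb1 probe, at position 4002, was dimmer. It read 108.0 in parental, 56.7 in Rb-deleted, 51.06 in WT Rb-HA and 52.91 in ΔCdk Rb-HA MEFs. On the Rb-deleted array its log2 ratio was -1.31 (0.15). It was not detected on the arrays with Rb-HA, where it was lower by at least 2.50-fold (WT Rb-HA) and at least 2.63-fold (ΔCdk Rb-HA). Both probes lie toward the 3′ end of the transcript, beyond the coding part, so neither reads the floxed segment itself and neither measures excision. Whether the retroviral Rb transcripts hold these stretches is not stated, so the values say nothing of the level of Rb-HA. By Rb immunoblot of contact-inhibited MEFs, the study reports acute loss of endogenous Rb protein and its replacement by Rb-HA at physiologic levels. That blot measured protein and not the RNA on these arrays.

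Signals of another cell type moved on the same arrays as Rb1. Of 10 leukocyte markers 8 were analysed, all detected on all 4 arrays, while Ptprc (CD45) and Fcer1g were not detected on any. Past 1.6-fold 6 were lower in Rb-deleted, 7 in WT Rb-HA and 6 in ΔCdk Rb-HA MEFs, with median log2 ratios of -0.99, -1.11 and -0.96. The shares of all genes called lower were 2.98%, 2.46% and 3.3%. The summed intensity of these 8 markers was 9273 in parental, 4824 in Rb-deleted, 4405 in WT Rb-HA and 5523 in ΔCdk Rb-HA MEFs. Lyz alone gave 4801, 2976, 2803 and 3611 of these sums, which therefore lean on that gene. Its log2 ratios were -0.68, -0.78 and -0.41. The parental array had the highest sum, as it had the highest Rb1 intensity. The 6 with the largest ratios follow, each in the order Rb-deleted, WT Rb-HA, ΔCdk Rb-HA. Emr1, the gene of the macrophage antigen F4/80, was at -1.69, -2.02 and -2.02, Laptm5 at -1.40, -1.78 and -1.49, Cd14 at -1.16, -1.18 and -0.80, and Csf1r, the receptor of a macrophage growth factor, at -0.82, -1.13 and -1.02. Cd68, a lysosomal protein of macrophages, was at -0.94, -1.08 and -0.90, and Tyrobp, a signalling adaptor, at -0.64, -0.80 and -1.05. Cd53, singled out after its values were seen, was the one marker above parental on any array, at -1.04, -0.62 and 0.39. In RNA of whole cultures, fewer cells of a type and less RNA per cell cannot be told apart, and the part of these cells in the Rb1 result was not tested. Fibroblast markers summed to 56890, 49558, 55131 and 49632 on the same arrays, and of the 10 only Col3a1, a fibrillar collagen, passed 1.6-fold to parental, at -0.73 in Rb-deleted and -0.98 in ΔCdk Rb-HA (-0.60 in WT Rb-HA). Of 5 epithelial markers 3 were analysed, at summed intensities of 206 to 249, and none passed 1.6-fold.

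The genes most like Rb1 were sought as a description, by the Euclidean distance of the 3 log2 ratios to parental over 10836 genes detected on all 4 arrays. The 5 nearest were Mpeg1 (distance 0.32), Gpr84 (0.37), Ms4a6d (0.38), C1qc (0.39) and C1qb (0.40). The last 2 encode chains of the complement protein C1q, which macrophages make, and Mpeg1 is a macrophage gene as well. Mpeg1 had log2 ratios of -1.78 in Rb-deleted, -1.97 in WT Rb-HA and -1.86 in ΔCdk Rb-HA MEFs.

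Rbl1, on chromosome 2, encodes p107, the pocket protein closest to p130. Its probe at position 4469 was detected on all 4 arrays, with intensities of 76.88 in parental, 118.4 in Rb-deleted, 77.06 in WT Rb-HA and 99.29 in ΔCdk Rb-HA MEFs. In log2 terms Rb-deleted MEFs were at 0.85 (0.14), WT Rb-HA at -0.01 (0.15) and ΔCdk Rb-HA at 0.54 (0.14) relative to parental. Rb-deleted was the highest, ΔCdk Rb-HA next, and WT Rb-HA and parental did not differ beyond the bead error. Rbl1 ranked 131st from the top of 12616 genes in Rb-deleted, 645th in ΔCdk Rb-HA and 6742nd in WT Rb-HA MEFs. It was 19th from the bottom in WT Rb-HA compared to Rb-deleted MEFs, at -0.87 (0.12). ΔCdk Rb-HA lay 0.55 (0.12) above WT Rb-HA and at -0.32 (0.11) to Rb-deleted. Only the Rb-deleted array passed 1.6-fold to parental, and it did not without background correction (0.63) or with an offset of 50 (0.57). The other probes of Rbl1, at positions 895 and 2259, read 38.37 to 47.85 and were not detected.

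The genes nearest to Rbl1 by the 3 ratios were Rrm1 (distance 0.14), a subunit of ribonucleotide reductase, Ltb4r1 (0.18), Mcm10 (0.19), which acts in replication initiation, Prim2 (0.19), a primase subunit, and Stmn1 (0.20). Rrm1 was at 0.88 in Rb-deleted, 0.07 in WT Rb-HA and 0.44 in ΔCdk Rb-HA MEFs, and Mcm10 at 0.69, -0.02 and 0.64. Rrm1 is also in the list of G1/S E2F targets below.

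Rbl2, on chromosome 8, encodes p130. Its probe at position 179 read 43.05 in parental, 38.37 in Rb-deleted, 41.12 in WT Rb-HA and 46.01 in ΔCdk Rb-HA MEFs, and that at position 2779 read 44.64, 41.19, 46.15 and 38.14 in the same order. Every value lay near the level of probes without signal, whose median was 35.9 to 36.9 per array (detection p-value over 0.5). No change in p130 mRNA was measurable, and its absence is not shown.

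Rbbp7, on the X chromosome, encodes RbAp46, a histone chaperone subunit. It was read by 5 probes, 4 of them detected on all arrays. The brightest, at position 91, had intensities of 612.7 in parental, 831.2 in Rb-deleted, 884.6 in WT Rb-HA and 978.7 in ΔCdk Rb-HA MEFs. Parental was the lowest and ΔCdk Rb-HA the highest. Log2 ratios to parental were 0.49 (0.06), 0.59 (0.06) and 0.78 (0.06), so only ΔCdk Rb-HA passed 1.6-fold. By this probe WT Rb-HA and Rb-deleted differed by 0.10 (0.06), within 2 bead standard errors. By the same probe ΔCdk Rb-HA lay 0.19 (0.05) above WT Rb-HA and 0.29 (0.05) above Rb-deleted. Among all genes Rbbp7 ranked 738th, 221st and 187th from the top.

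The probes of Rbbp7 did not all read alike. Those at positions 83 and 105 gave 0.47 (0.08) and 0.45 (0.06) in Rb-deleted, 0.76 (0.07) and 0.74 (0.06) in WT Rb-HA, and 0.88 (0.09) and 0.82 (0.05) in ΔCdk Rb-HA MEFs, past 1.6-fold on the arrays with Rb-HA. By these probes WT Rb-HA lay 0.29 (0.06) and 0.29 (0.07) above Rb-deleted, more than 2 bead standard errors, unlike the probe at position 91. ΔCdk Rb-HA lay 0.12 (0.07) and 0.09 (0.06) above WT Rb-HA, within 2 bead standard errors. The 3 probes at the 5′ end cover positions 83 to 154 as the table numbers them and overlap. By their letters they share the 29 bases printed next, 1 base more than those numbers give, so they are not independent readings.

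Rbbp7 shared probe bases: aactcaggcttttccgagcgaggactgcg

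The probe at position 1925, far downstream, read 93.06 in parental, 100.1 in Rb-deleted, 110.9 in WT Rb-HA and 90.53 in ΔCdk Rb-HA MEFs. Its log2 ratios were 0.18 (0.10), 0.34 (0.12) and -0.03 (0.15). In ΔCdk Rb-HA MEFs the 5′ probes were thus past 1.6-fold and this probe was at parental level. The probe at position 2091 read 33.64 to 37.52 and was not detected. With the mean over detected probes in place of the brightest, Rbbp7 was at 0.61 in ΔCdk Rb-HA MEFs and no longer past 1.6-fold. A probe named LOC623006, picked out after the annotation had been read because it is described there as similar to mRbAp46, read 548.2, 576.4, 540.8 and 591.2. Its ratios were 0.11, 0.04 and 0.21, and it shared at most 6 bases in a row with any Rbbp7 probe. Which transcripts each Rbbp7 probe reads was not tested.

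**Figure D3:**
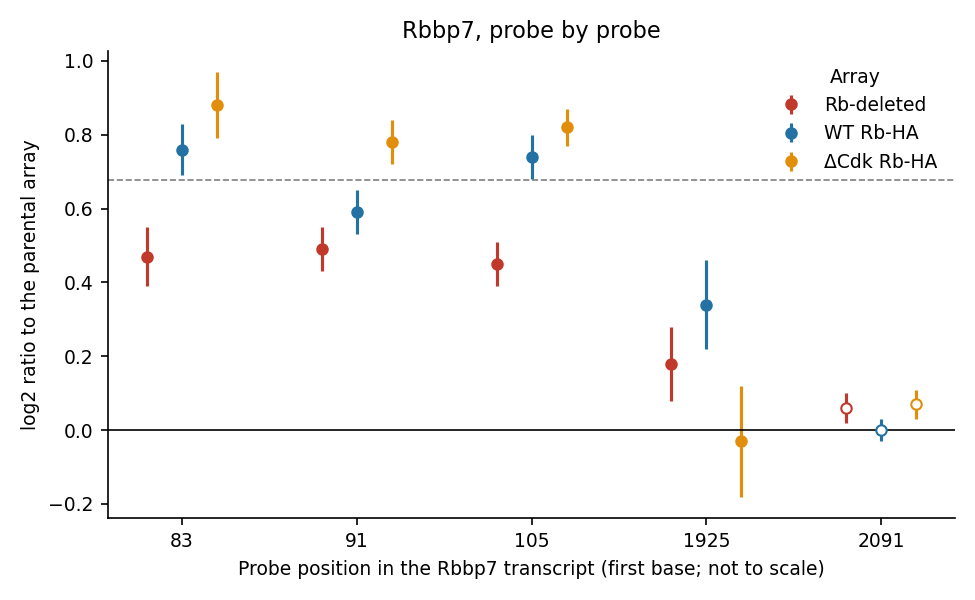
Log2 ratio to the parental array of each of the 5 Rbbp7 probes, in order of first transcript position (not to scale), for the 3 arrays that received TAT-Cre, with bead standard errors as bars, 1.6-fold as a dashed line and open points for a probe that was not detected. The overlapping probes at 83, 91 and 105 run from 0.45 to 0.88, and the probe at 1925 from -0.03 to 0.34.

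Genes nearest to Rbbp7 by the 3 ratios were Mrpl53 (distance 0.05), a mitochondrial ribosomal protein gene with log2 ratios of 0.50, 0.63 and 0.76, and then scl0002130.1_20 (0.08), 0610007J10Rik (0.09), Rps4y2 (0.10) and LOC242703 (0.10).

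Rbbp4, on chromosome 4, encodes RbAp48, the close relative of RbAp46. Its brightest probe, at position 1523, read 376.1 in parental, 412.3 in Rb-deleted, 381.4 in WT Rb-HA and 371.7 in ΔCdk Rb-HA MEFs. The log2 ratios were 0.19 (0.09), 0.08 (0.08) and 0.07 (0.10), and with median scaling between arrays the sign turned in WT Rb-HA (-0.01) and in ΔCdk Rb-HA (-0.03). With the mean over detected probes it turned further, to -0.18 and -0.12, and Rb-deleted was at 0.02. A dimmer probe, at position 4212, read 91.05, 106.3, 87.01 and 85.01. It gave 0.33 (0.10), -0.10 (0.11) and -0.12 (0.11), with the Rb-deleted array the highest for both probes. Compared to Rb-deleted MEFs this probe was at -0.43 (0.10) in WT Rb-HA and -0.44 (0.10) in ΔCdk Rb-HA, below 1.6-fold. The probe at position 3085 was detected in parental MEFs alone, at 58.62 against 48.16 to 51.34. Bounds that leave out bead error were 1.14-fold, 1.04-fold and 1.10-fold lower in the others. Log2 ratios of this probe were -0.45 (0.18), -0.51 (0.16) and -0.33 (0.17), the last within 2 bead standard errors of 0. The probe at position 2221 was not detected.

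Hdac2, a class I histone deacetylase on chromosome 10, spanned the narrowest range of the 7 genes. The probe at position 1694 read 2901 in parental, 3003 in Rb-deleted, 2982 in WT Rb-HA and 2847 in ΔCdk Rb-HA MEFs. Ratios on the log2 scale were 0.12 (0.06), 0.09 (0.05) and 0.06 (0.06), each within 2 bead standard errors of 0, and that in ΔCdk Rb-HA was -0.04 with median scaling. The other probe, at position 3185, read 55.54, 60.72, 59.86 and 60.82 and was not detected in parental MEFs. The computed bounds, which leave out bead error, were 1.14-fold, 1.05-fold and 1.12-fold higher in the others. Its log2 ratios were 0.25 (0.12), 0.14 (0.11) and 0.23 (0.12), the last 2 within 2 bead standard errors of 0.

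Suv39h1, on the X chromosome, encodes a methyltransferase of histone H3 lysine 9. Its probe at position 2409 read 72.45 in parental, 92.73 in Rb-deleted, 72.87 in WT Rb-HA and 83.23 in ΔCdk Rb-HA MEFs, detected on all 4 arrays. The order of the arrays was that of Rbl1, with Rb-deleted highest, ΔCdk Rb-HA next and WT Rb-HA and parental alike within the bead error. Relative to parental the log2 ratios were 0.54 (0.12), -0.01 (0.12) and 0.30 (0.14), none past 1.6-fold. In Rb-deleted MEFs the ratio was 0.38 without background correction and 0.34 with an offset of 50. Suv39h1 ranked 579th from the top in Rb-deleted MEFs. WT Rb-HA was at -0.55 (0.11) to Rb-deleted, 153rd from the bottom. ΔCdk Rb-HA was at -0.24 (0.13) to Rb-deleted, within 2 bead standard errors, and at 0.31 (0.13) to WT Rb-HA. The probe at position 1093 read 42.50 to 47.04 and was not detected.

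Smarca4, on chromosome 9, encodes Brg1, which opens nucleosomes as part of SWI/SNF. The single probe, at position 5289, read 138.4 in parental, 152.6 in Rb-deleted, 136.3 in WT Rb-HA and 129.3 in ΔCdk Rb-HA MEFs. Rb-deleted was the highest, but the log2 ratios of 0.20 (0.13), -0.01 (0.12) and -0.07 (0.13) were each within 2 bead standard errors of 0. ΔCdk Rb-HA was at -0.27 (0.14) to Rb-deleted MEFs.

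Comparisons among the 3 arrays that received TAT-Cre do not involve the parental array. Those with Rb-deleted MEFs set infected against uninfected cultures, so Rb-HA and infection cannot be told apart in them. In WT Rb-HA compared to Rb-deleted MEFs, 1 of the 7 genes was called (Rbl1, lower), against 1.02% of all genes in either direction. The median of the 7 was -0.11 (-0.019 over all genes), and 5 of the 7 were below 0. Only 3 passed 2 bead standard errors, Rbl1 and Suv39h1 lower and Rb1 higher. In ΔCdk Rb-HA compared to Rb-deleted MEFs none was called, against 4.26%, and the ratios ran from -0.32 (Rbl1) to 0.29 (Rbbp7). In ΔCdk Rb-HA compared to WT Rb-HA MEFs none was called, against 1.85%. There Rbl1 (0.55), Suv39h1 (0.31) and the brightest Rbbp7 probe (0.19) exceeded 2 bead standard errors, all higher in ΔCdk Rb-HA. The other 4 genes lay between -0.06 and -0.00. The Rbbp7 probes at positions 83 and 105 were at 0.12 (0.07) and 0.09 (0.06), within 2 bead standard errors. The Rbbp7 probe at position 1925 was at -0.36 (0.16), lower in ΔCdk Rb-HA by more than 2 bead standard errors. Rbl1 was 252nd from the top in that comparison.

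Genes of the complexes that pocket proteins recruit were taken from lists by function. For the subunits of the Sin3 and class I deacetylase complex 12 of 13 were analysed, for NuRD 7 of 9, for SWI/SNF 12 of 13, for the DREAM and MuvB complex of p130 and p107 6 of 9, and for histone H3K9 and H4K20 methylation with HP1 7 of 10. None of these genes passed 1.6-fold to parental in either direction on any of the 3 arrays. Median log2 ratios in Rb-deleted MEFs were 0.00 for Sin3, 0.17 for NuRD, -0.01 for SWI/SNF, 0.07 for DREAM and MuvB and 0.26 for the H3K9 list. In WT Rb-HA they were -0.07, 0.02, -0.01, -0.05 and 0.04, and in ΔCdk Rb-HA -0.13, -0.04, -0.08, -0.09 and 0.03. In comparisons among the TAT-Cre arrays 2 genes of these lists passed 1.6-fold, both lower in ΔCdk Rb-HA and both named after their values were seen. Of all genes, 4.26% passed in either direction in ΔCdk Rb-HA compared to Rb-deleted and 1.85% compared to WT Rb-HA. In WT Rb-HA compared to Rb-deleted MEFs 1.02% passed. E2f4, the E2F that p130 binds in quiescent cells, read 175.5 in parental, 199.2 in Rb-deleted, 199.9 in WT Rb-HA and 126.1 in ΔCdk Rb-HA MEFs. The ΔCdk Rb-HA array was the lowest, at -0.76 to Rb-deleted and -0.76 to WT Rb-HA. Mta1, a NuRD subunit, read 171.8, 187.8, 169 and 124.5 in the same order, and ΔCdk Rb-HA was at -0.69 to Rb-deleted and -0.50 to WT Rb-HA.

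Rb-binding proteins outside these complexes held 2 exceptions. Of 10 of 12 genes analysed, 2 were called higher in Rb-deleted, 1 in WT Rb-HA and 1 in ΔCdk Rb-HA MEFs, and none lower, with medians of 0.01, 0.09 and 0.04. The shares of all genes called higher were 2.14%, 0.888% and 2.58%. Dnmt1, the maintenance DNA methyltransferase, read 327 in parental, 656.7 in Rb-deleted, 368 in WT Rb-HA and 433 in ΔCdk Rb-HA MEFs, with log2 ratios of 1.11 (0.05), 0.25 (0.06) and 0.53 (0.06). Rb-deleted was again the highest and ΔCdk Rb-HA next. Ezh2, the Polycomb methyltransferase that works with Rbbp4 and Rbbp7, read 121.6, 225.5, 186.3 and 224.5, with ratios of 1.06 (0.11), 0.74 (0.12) and 1.08 (0.11).

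Among G1/S E2F targets, which hold replication factors and cyclins, 24 of 27 were analysed. Higher past 1.6-fold than in parental MEFs were 21 in Rb-deleted, 10 in WT Rb-HA and 19 in ΔCdk Rb-HA, and none was lower. The shares of all genes called higher were 2.14%, 0.888% and 2.58%. The list's medians were 1.31, 0.62 and 1.08, so the p107 gene, at 0.85, -0.01 and 0.54, lay below the list's median on each array. In ΔCdk Rb-HA compared to WT Rb-HA MEFs the list's median was 0.38 and the Rbl1 ratio 0.55. The largest ratio among its genes was that of Ung, a uracil glycosylase, at 2.46 in Rb-deleted, 1.37 in WT Rb-HA and 1.47 in ΔCdk Rb-HA MEFs. Next came Mcm3, a helicase subunit, at 2.32, 1.54 and 1.80, and Mcm6, of the same helicase, at 2.25, 1.02 and 1.36. Chaf1b, a histone chaperone subunit of replication, was at 2.01 in Rb-deleted and 0.78 in WT Rb-HA MEFs, with ΔCdk Rb-HA 0.71 above WT Rb-HA, Mcm2 at 2.00, 0.95 and 1.25, and Mcm5 at 1.91, 0.71 and 1.52. These 6 were picked for their largest ratios, which were those in Rb-deleted MEFs. Over the whole list, WT Rb-HA was below Rb-deleted and below ΔCdk Rb-HA for 24 of 24 genes, while ΔCdk Rb-HA was below Rb-deleted for 17 and above it for 7. Those 7, named after their values were seen, were Ccne2 (0.30 above Rb-deleted), Rrm2 (0.23), Cdc6 (0.20), Pcna (0.12), Gins2 (0.10), Tyms (0.09) and Tk1 (0.08).

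**Figure D4:**
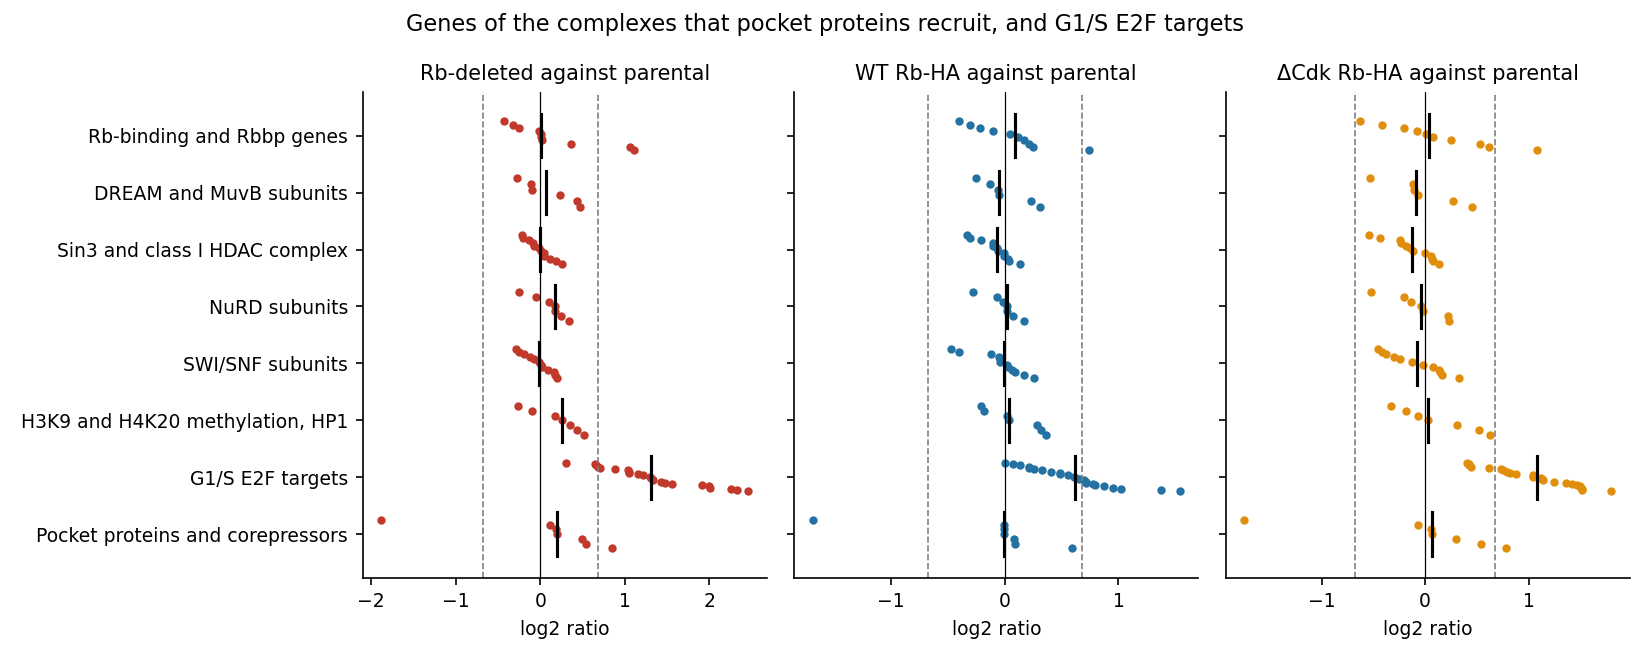
Log2 ratio to the parental array of each analysed gene of 7 lists and of the 7 pocket protein and corepressor genes, for the 3 arrays that received TAT-Cre (axes differ in range), with medians as black bars and 1.6-fold as dashed lines. The G1/S E2F targets lie to the right with medians of 1.31, 0.62 and 1.08, the complexes lie around 0, and the isolated point at the left of the bottom row is Rb1.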

How the data were processed

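RNA of MEFs in 4 conditions, 1 array each, was hybridized to Illumina mouse BeadChips, and the labels of the samples gave each array's condition. The authors deposited for every probe and array an intensity averaged over beads, linear and not yet normalized. Beside it, the deposited table holds the number of beads, their standard error and a detection p-value in steps of 1 in 936. The tool that summarized the arrays and the genome build of the table's positions are not given in the sources used here, so chromosomes and transcript positions alone are given for probes. Of 40 probes whose symbols read as dates, 34 were renamed from a RefSeq table of assembly GRCm38.p6.

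Intensities were background corrected in limma 3.58.1 (R 4.3.3) by normexp, the background taken from detection p-values, with an offset of 16, quantile normalized over the 4 arrays and put on the log2 scale. The offset draws the ratios of dim probes toward 0. Genes needed a probe detected on 1 or more arrays (p-value under 0.01) and were represented by the brightest such probe, which left 12616 genes. Called means past 1.6-fold, the filter used in the study. Bead standard errors were carried through each array's own mapping. Where a probe was not detected on 1 side, a bound was computed against the higher of its own value and the lowest detected value. Bead error does not enter this bound. The number of arrays limits the precision, and no p-values of differences were computed. The calculation was tested on simulated data with known folds. The simulated noise came from bead error and background alone, so it says nothing of variation between cultures.

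Named genes are the 9 members with every probe, up to 6 genes per list past 1.6-fold, and for each called member the 5 genes with the nearest ratios. Members and lists were chosen with earlier results of these data known. Alternatives concerned the background step and its offset, scaling, detection filter, choice of probe, fold threshold and bead error. Protein sequences were not used here. Further computations used Python 3.11.15, numpy 2.4.6 and pandas 2.3.3.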

Additional observations from a re-analysis of the deposited data

How the results depend on the processing

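No paired analysis was possible because each condition has 1 array. No direction of the Rb1 or Rbl1 ratios turned under any of the alternatives, and 67 of 90 recomputed values for the counts of called members and for Rb1 and Rbl1 stayed within 1.5 times (counts) or 1 bead standard error (ratios). Part of that tally was fixed in advance. The brightest probe of each analysed member was detected on every array, so the alternative detection filters could not change its value. For genes with a single detected probe, such as Rbl1, the mean over detected probes could not either. Without background correction, with an offset of 50 or with a 2-fold threshold, the count of members called in Rb-deleted compared to parental MEFs went from 2 to 1 and that in WT Rb-HA compared to Rb-deleted MEFs from 1 to 0. The count in ΔCdk Rb-HA compared to parental went from 2 to 1 with the mean over detected probes or a 2-fold threshold, and that in WT Rb-HA compared to parental from 1 to 2 at 1.5-fold. Rb1 in Rb-deleted MEFs was at -1.71 without background correction, -1.65 with an offset of 50 and -1.60 with the mean over detected probes. In WT Rb-HA it was at -1.55 without background correction, -1.50 with an offset of 50 and -1.76 with median scaling, and in ΔCdk Rb-HA at -1.60, -1.55 and -1.84, and -1.63 with the mean over detected probes. Rbl1 without background correction was at 0.63 in Rb-deleted and 0.39 in ΔCdk Rb-HA, and with an offset of 50 at 0.57 and 0.35. Both settings compress the ratios of dim probes by construction. For the other 5 analysed members, whose alternatives were added after their values had been seen, 16 of 90 values moved by more than 1 bead standard error. Signal near background limits Rbl1, Suv39h1 and the dimmer Rb1 and Rbbp4 probes, and left Rbl2 unmeasured.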
